A study of Rattus norvegicus with 12 samples.

Results

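Hepatic fatty acid oxidation is described here through 8 genes: Ppara, Cpt1a, Cpt2, Acadm, Hadha, Fgf21, Angptl4 and Pex11a. They were taken as every array probe whose gene name is one of these symbols, which gave 11 probes among 41012 on the array. All 11 were well above the local background on at least 3 of 12 arrays, so the 8 genes stand among 24298 genes tested. Ppara, Cpt1a, Cpt2, Acadm, Fgf21 and Angptl4 had 1 probe each, Pex11a had 2 and Hadha had 3.

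The liver burns fatty acids mainly in mitochondria, and the carnitine shuttle controls how much long-chain fat gets in. Peroxisomes shorten the longest chains, and the microsomal CYP4A enzymes start oxidation from the far end of the chain. PPARalpha, a nuclear receptor that binds fatty acids and pairs with RXR, switches on many genes of these routes in fasting and is the target of fibrate drugs. Glucocorticoids such as dexamethasone act through their own nuclear receptor and also rise in fasting.

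Livers came from female rats given dexamethasone, female rats given vehicle, male rats given dexamethasone and male rats given vehicle. All were adult Sprague-Dawley rats of 8 to 10 weeks whose adrenal glands had been removed, so every group, vehicle included, lacked adrenal glucocorticoid. The females were in diestrus, according to the labels. Dexamethasone was injected into the peritoneum at 1 mg per kg, the vehicle was phosphate-buffered saline, and liver was taken 6 h later. Each group has 3 single-colour arrays, and each array carries RNA pooled in equal amounts from 3 of the group's 9 animals, so replicate spread is spread between pools and animals cannot be told apart within one. Values are log2 of the processed spot intensity minus the array's 75th percentile, and they compare arrays for one probe, not one gene with another.

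The arrays lie on 5 slides, and slide 5 holds replicate 3 of every group. Its arrays were dimmer, with 53.0% to 61.8% of spots well above background, against 62.7% to 69.7% on the other 8 arrays. The number of arrays limits the precision of every value. The treatment labels fitted the glucocorticoid targets Fkbp5 (4.54 ± 0.20 in females and 4.17 ± 0.18 in males, log2 difference ± SE) and Tat (1.98 ± 0.32 and 2.46 ± 0.32), which rose in both sexes. The sex labels fitted Cyp2c11, which was lower in females than in males after dexamethasone (-8.56 ± 0.34) and after vehicle (-8.88 ± 0.38), and Cyp2c12, which was higher (4.13 ± 0.53 and 3.97 ± 0.53). The mean level per array of 8 hepatocyte genes, Alb and Apoa1 among them, lay between 8.20 and 9.17. It was 9.02 to 9.17 and 8.66 to 8.77 in female livers given dexamethasone and vehicle. In male ones it was 8.84 to 8.98 and 8.20 to 8.96. The dimmest of these genes, Cps1, read 2.27 to 6.19. Leukocyte genes moved with the treatment: all 7 tested members of a list of 10 fell in both sexes (for example Gzma and S100a9), with a mean level per array of -3.64 to -3.34 and -1.61 to -0.56 in female livers given dexamethasone and vehicle, and of -3.79 to -3.42 and -1.75 to -1.44 in male ones. Of 7 stellate cell genes tested from a list of 8, 3 fell in females (Lrat, Pdgfrb and Des) and 2 in males (Lrat and Pdgfrb). That is 42.9% and 28.6% called, beside 24.4% and 20.1% of all genes. The others, Col1a1 and Col3a1 among them, were not called, and the median over the 7 was -0.62 in females and 0.10 in males. The mean level per array was 1.40 to 2.0 and 2.54 to 2.80 in female livers given dexamethasone and vehicle. In male ones it was 2.21 to 2.29 and 2.38 to 2.69. The part of these cell types in the results below was not tested. In bulk liver RNA, fewer cells of a type and less RNA per cell cannot be told apart.

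The probes of 3 genes, those with the largest fall, the least stable fall and the largest rise, show what was hybridized. The array design prints a 60-base probe for each, and the stretches below are read from the deposited scanner files in the sense direction. For Pex11a the dimmer probe is shown, because it has 2 reading frames without a stop, as do those of Fgf21 and Angptl4, and the brighter one has 1.
Fgf21: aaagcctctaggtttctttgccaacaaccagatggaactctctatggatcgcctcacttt
Angptl4: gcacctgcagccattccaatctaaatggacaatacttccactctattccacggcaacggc
Pex11a: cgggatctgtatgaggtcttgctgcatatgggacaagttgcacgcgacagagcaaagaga

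Upstream sequence was searched for receptor motifs in all 8 genes, each matched by symbol to a RefSeq promoter of build GRCr8. The 250 bases before the start site were scanned on both strands for AGGTCANAGGTCA, the repeat to which PPARalpha with RXR binds, and for its element AGGTCA. They were also scanned for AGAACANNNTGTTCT, the palindrome of the glucocorticoid receptor, for its element AGAACA, and for TATAAA and CACGTG. The single elements lie inside the longer motifs, so their matches would overlap. None of the 4 receptor motifs matched in these 250 bases of any of the 8 genes, while the shares of all 33469 promoters that hold them were 0.0508%, 14.1%, 0.0120% and 17.5% in the order given. That says only that these letters are not in these windows. TATAAA was present in 2 of the 8, Fgf21 and Angptl4 (12.9% of all promoters), and CACGTG in Fgf21 alone (5.59%). The windows of the genes with the largest fall, the least stable fall and the largest rise are printed to show this, with TATAAA, in Angptl4 on overlapping strands, and CACGTG in capitals. Fgf21 lies at chr1:105221377-105221626, Angptl4 at chr7:15258682-15258931 and Pex11a at chr1:143096492-143096741, all on the minus strand of GRCr8.
Fgf21: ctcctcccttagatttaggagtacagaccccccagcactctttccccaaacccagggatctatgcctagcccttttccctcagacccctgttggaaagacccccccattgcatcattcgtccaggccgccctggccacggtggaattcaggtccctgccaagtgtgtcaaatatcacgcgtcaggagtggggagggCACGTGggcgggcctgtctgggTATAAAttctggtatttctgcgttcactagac
Angptl4: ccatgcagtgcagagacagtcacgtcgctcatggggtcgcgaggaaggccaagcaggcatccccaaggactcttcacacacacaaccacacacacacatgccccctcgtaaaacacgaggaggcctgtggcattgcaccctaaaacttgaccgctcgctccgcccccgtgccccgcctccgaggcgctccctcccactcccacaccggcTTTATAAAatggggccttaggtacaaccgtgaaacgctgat
Pex11a: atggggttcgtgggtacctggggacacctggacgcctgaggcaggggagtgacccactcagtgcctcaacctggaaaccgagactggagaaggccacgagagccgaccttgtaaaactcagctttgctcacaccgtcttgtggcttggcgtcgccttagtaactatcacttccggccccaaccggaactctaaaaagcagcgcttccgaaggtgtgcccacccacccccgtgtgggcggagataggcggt

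Dexamethasone split the 8 genes. Pex11a, which elongates and divides peroxisomes, and Cpt2, the inner-membrane step of the carnitine shuttle, rose in both sexes. The fasting hormone gene Fgf21, the lipase inhibitor gene Angptl4 and Cpt1a, the outer-membrane step of the shuttle, fell in both sexes. Ppara itself and the chain-shortening enzymes Acadm and Hadha did not pass the test in either sex. A gene was called at an adjusted p under 0.05, from limma with Benjamini-Hochberg adjustment over all 24298 genes. By that rule 5 of 8 were called in females, 2 higher and 3 lower, where 24.4% of all genes were called, 11.7% higher and 12.6% lower. In males 5 of 8 were called, 2 higher and 3 lower, where 20.1% of all genes were called, 9.34% higher and 10.8% lower. The arrays of dexamethasone and vehicle did not overlap for 7 of 8 genes in females and 5 of 8 in males, against 43.1% and 35.2% of all genes.

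**Figure D1:**
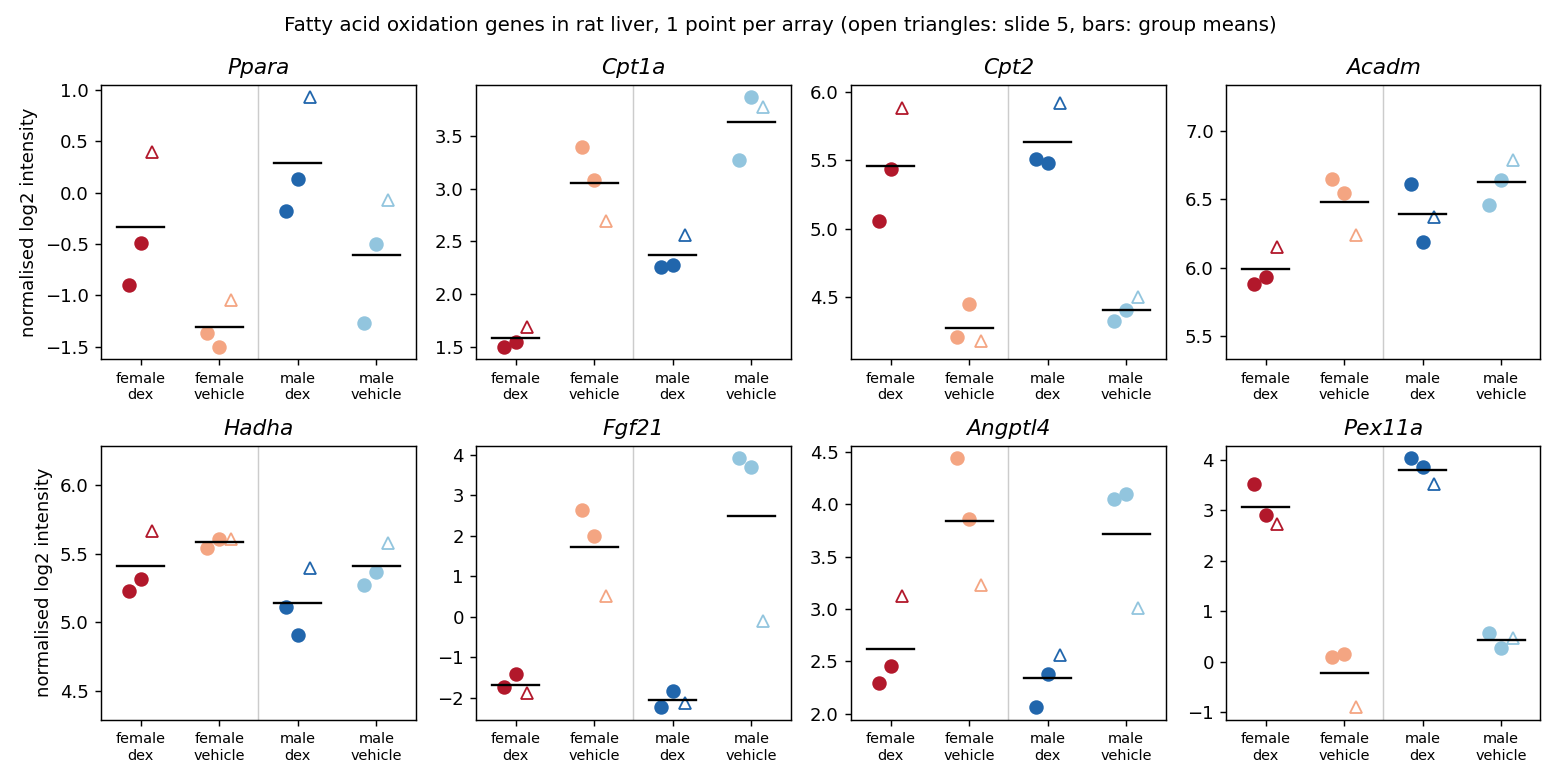
Normalised log2 intensity of each gene on each of 12 arrays, with groups from left to right and the group mean as a bar; open triangles are the slide 5 arrays. Each panel has its own axis. Pex11a and Cpt2 stand higher and Cpt1a, Fgf21 and Angptl4 lower after dexamethasone in both sexes, and the slide 5 vehicle arrays are the lowest of their groups for Fgf21 and Angptl4.

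Ppara encodes the receptor itself, and its probe is printed 10 times on each array. It stood at -0.90, -0.49 and 0.40 in female livers given dexamethasone, against -1.37, -1.50 and -1.05 in those given vehicle. In male livers it stood at -0.18, 0.13 and 0.93 after dexamethasone, against -1.27, -0.50 and -0.07 after vehicle. The female groups did not overlap, and the male groups did, where the highest vehicle array lay above the lowest dexamethasone array. The difference was 0.98 ± 0.41 in females (adjusted p = 0.108) and 0.90 ± 0.41 in males (adjusted p = 0.157), so neither was called. With slide as a random block both were called, at 1.16 (adjusted p = 0.0261) and 0.79 (adjusted p = 0.0475), and with slide as a fixed block only females were, at 1.37 (adjusted p = 0.0328) against 0.62 in males (adjusted p = 0.0820). Within slide 5 the difference was 1.44 in females and 1.00 in males, and within slide 1, which holds 1 male array of each treatment, it was 0.32.

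Of 13 partners and coregulators of PPARalpha tested, 4 rose and 0 fell in females, and 3 rose and 0 fell in males. The share called was 30.8% and 23.1%, near the 24.4% and 20.1% of all genes, with medians of 0.06 and 0.13 beside -0.08 and 0.01 over all genes. Lpin1, a lipid phosphatase that also acts as a nuclear coactivator of PPARalpha in mice, rose by 3.07 ± 0.18 in females and 2.89 ± 0.18 in males (adjusted p = 3.92e-06 and 6.38e-06), the steepest of the list. Its arrays lay between 5.22 and 5.62 in female livers given dexamethasone and between 2.15 and 2.45 in those given vehicle. The coactivator gene Ppargc1b rose by 2.21 ± 0.43 and 2.23 ± 0.43, and Esrra, a nuclear receptor for oxidative metabolism, by 1.05 ± 0.18 and 1.14 ± 0.18. Ppargc1a, the relative that drives the fasting programme, was not called (-0.58 ± 0.35 in females, adjusted p = 0.257, and 0.96 ± 0.35 in males, adjusted p = 0.0800). Rxra, the binding partner, rose in females (0.93 ± 0.19, adjusted p = 0.00646) and was not called in males (0.13 ± 0.19, adjusted p = 0.720), and the difference of the dexamethasone effect between the sexes was not called for it or any other gene of the lists.

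Cpt1a encodes the liver enzyme that attaches long-chain fatty acids to carnitine, the gate of mitochondrial entry that malonyl-CoA closes. Its level was 1.50, 1.54 and 1.69 in female livers given dexamethasone, against 3.40, 3.08 and 2.69 in those given vehicle. Among males it was 2.26, 2.28 and 2.56 after dexamethasone, against 3.27, 3.87 and 3.78 after vehicle. Every dexamethasone array lay below every vehicle array of its sex. The fall was 2.79-fold in females (-1.48 ± 0.22, adjusted p = 0.000987) and 2.42-fold in males (-1.28 ± 0.22, adjusted p = 0.00239). It was -1.0 and -1.22 within slide 5 and -1.61 within slide 1 in males. With slide as a fixed block, the call in females was just lost (-1.22, adjusted p = 0.0513).

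Cpt1a was also the member closest to a sex difference. It was lower in females than in males by 0.79 after dexamethasone (-0.79 ± 0.22, 95% confidence interval -1.27 to -0.30) and by 0.58 after vehicle (-0.58 ± 0.22, interval -1.07 to -0.10). After dexamethasone the arrays of the sexes did not overlap. Over all genes neither difference passed, with adjusted p of 0.107 and 0.356.

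Cpt2 encodes the inner-membrane transferase that gives the fatty acid back to coenzyme A, and it moved opposite to Cpt1a. It stood at 5.06, 5.44 and 5.88 in female livers given dexamethasone, against 4.21, 4.45 and 4.18 in those given vehicle. The male values were 5.51, 5.48 and 5.92 after dexamethasone, against 4.33, 4.41 and 4.50 after vehicle. No array of one treatment reached those of the other, and the highest array in each sex after dexamethasone was the slide 5 one. The rise was 2.27-fold in females (1.18 ± 0.22, adjusted p = 0.00327) and 2.33-fold in males (1.22 ± 0.22, adjusted p = 0.00287). It was called in each of the alternatives with a test, and was 1.70 and 1.42 within slide 5.

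Of 14 further genes of fatty acid activation and the carnitine shuttle, 1 rose and 4 fell in each sex. That is 35.7% called, beside 24.4% of all genes in females and 20.1% in males, with medians of -0.09 and -0.28 beside -0.08 and 0.01 over all genes. Acsl3 and Acsl1, which join fatty acids to coenzyme A, fell by 1.60 ± 0.27 and 1.22 ± 0.21 in females and by 1.53 ± 0.27 and 1.14 ± 0.26 in males; the male values of Acsl1 rest on 2 arrays per group, as a spot was missing on one array of each. Cpt1b, the isoform typical of muscle, rose (0.97 ± 0.27 in females and 0.86 ± 0.27 in males), while none of 5 skeletal muscle markers with a probe, Ckm and Acta1 among them, was well above background on more than 1 array. Cpt1c, the isoform known from brain, fell (-0.63 ± 0.20 and -0.83 ± 0.20). Slc27a5, a bile acid and fatty acid ligase, fell in males (-0.98 ± 0.24, adjusted p = 0.0164) and was not called in females (-0.62 ± 0.24, adjusted p = 0.0893). Slc25a20, the carnitine carrier that links Cpt1a with Cpt2, was not called in either sex (0.33 ± 0.15 and -0.03 ± 0.15).

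**Figure D2:**
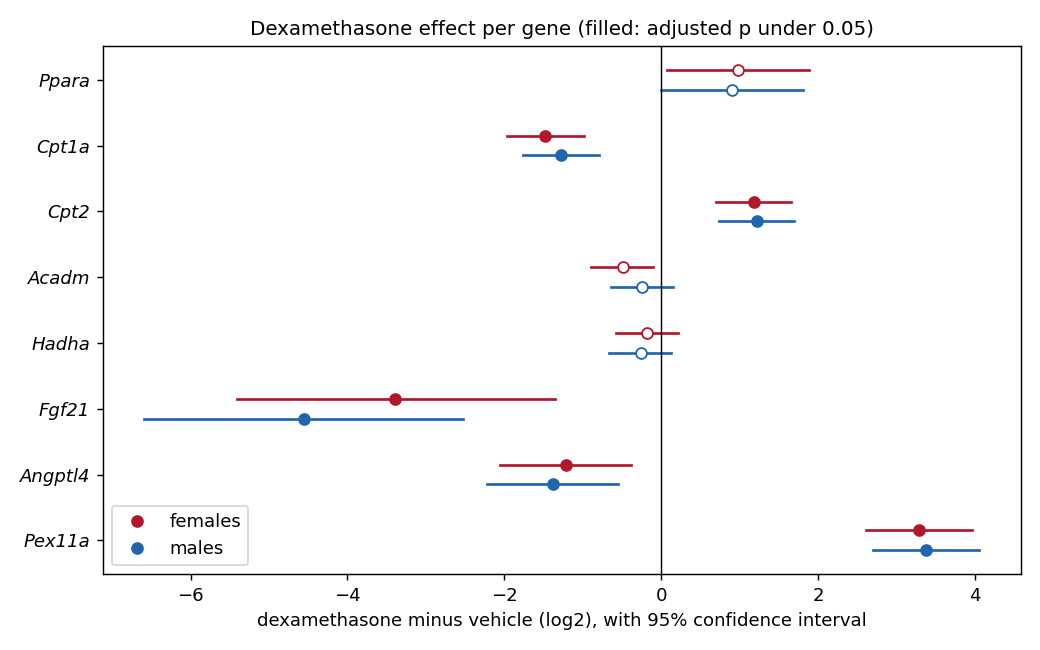
Dexamethasone minus vehicle per gene on the log2 scale, females above males in each row, with 95% confidence intervals from limma; filled points were called. The intervals of Cpt1a and Cpt2 lie on opposite sides of 0, those of Hadha include 0 in both sexes, and those of Fgf21 are the widest.

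Acadm, the medium-chain acyl-CoA dehydrogenase, opens the oxidation cycle for medium chains. It stood at 5.88, 5.93 and 6.15 in female livers given dexamethasone, against 6.65, 6.55 and 6.24 in those given vehicle, with no overlap. Male livers had 6.61, 6.19 and 6.37 after dexamethasone, against 6.46, 6.64 and 6.79 after vehicle, with overlap. The difference was -0.49 ± 0.18 in females (adjusted p = 0.0679) and -0.24 ± 0.18 in males (adjusted p = 0.405). Without the slide 5 arrays the female difference was called (-0.70, adjusted p = 0.0373), while within slide 5 it was -0.09. The female arrays outside slide 5 hold dexamethasone on slide 4 and vehicle on slide 2, so slide and treatment cannot be told apart. The neighbouring gene Rabggtb was -0.03 ± 0.20 in females and rose in males (0.72 ± 0.20, adjusted p = 0.0308).

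Hadha, the alpha subunit of the trifunctional protein that carries out the later steps on long chains, was not called in either sex. Its brightest probe read 5.23, 5.32 and 5.67 in female livers given dexamethasone, against 5.54, 5.61 and 5.61 after vehicle. In males the probe read 5.11, 4.91 and 5.40 after dexamethasone, against 5.27, 5.37 and 5.58 after vehicle. Groups overlapped in both sexes. The differences were -0.18 ± 0.18 (interval -0.58 to 0.21) and -0.26 ± 0.18 (interval -0.66 to 0.13), which bounds a fall but does not show that there was none. The other probes of Hadha were not called either, and one gave -0.24 in females and -0.46 in males. The dimmest, well above background on 10 of 12 arrays, gave 0.03 and -0.57. For both of these probes the groups overlapped in females but not in males. Their unadjusted p in males was 0.0355 and 0.039 by limma. Hadhb, which encodes the beta subunit and is the neighbouring protein-coding gene in the reference annotation, gave -0.07 ± 0.34 and -0.36 ± 0.34.

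The rest of the mitochondrial spiral was mostly not called. Of 13 further enzymes and electron carriers tested, 1 was called in females (Decr1, an auxiliary reductase for unsaturated chains, -0.49 ± 0.14, adjusted p = 0.0311) and 0 in males, with medians of 0.03 and -0.20. That is 7.69% and 0% called, beside 24.4% and 20.1% of all genes, whose medians were -0.08 and 0.01. At an unadjusted p under 0.05, limma passed 2 of the 13 in females and 1 in males. Ketone body synthesis had 0 of 4 called in either sex by limma (2 and 0 at an unadjusted p under 0.05), beside the same shares of all genes.

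Fgf21 encodes a hormone that the liver secretes in fasting and under PPARalpha agonists, and had the largest fall of the 8. It stood at -1.73, -1.41 and -1.87 in female livers given dexamethasone, against 2.63, 2.0 and 0.52 in those given vehicle. Male livers gave -2.23, -1.83 and -2.12 after dexamethasone, against 3.92, 3.69 and -0.11 after vehicle. The dexamethasone arrays were close to each other and all below the vehicle arrays, and the low vehicle array in each sex is the one on slide 5. The fall was 10.5-fold in females (-3.39 ± 0.91, adjusted p = 0.0222) and 23.6-fold in males (-4.56 ± 0.91, adjusted p = 0.00555). Its size depended on the slide: it was -2.39 in females and -2.0 in males within slide 5, -5.93 in males within slide 1, and -3.88 and -5.84 over the arrays of slides 1 to 4. Among females, slides 1 to 4 hold the treatments on different slides, so slide and treatment cannot be told apart there. With slide as a fixed block the female call was lost (-2.55, adjusted p = 0.171) and the male one held (-4.05, adjusted p = 0.0146). Leaving out single arrays moved the adjusted p between 0.000766 and 0.0782 in females and between 0.000134 and 0.0239 in males. The female call was lost without any 1 of the female dexamethasone arrays or without female vehicle 1 or 2 (adjusted p = 0.0555 to 0.0782).

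The difference of the Fgf21 response between females and males was 1.17 ± 1.29, with an interval of -1.69 to 4.04, which includes several-fold differences either way. Pancreas also makes Fgf21, and among 6 exocrine pancreas genes Prss1, Amy2a3 and Pnlip were not well above background on any array. The other 3 (Cpa1, Cela1 and Ctrb1) had mean levels per array of -0.23 to 0.66 and 0.29 to 1.20 in female livers given dexamethasone and vehicle, and -1.03 to -0.80 and -1.19 to -0.72 in male livers; Ctrb1 fell in females (-1.25 ± 0.33, adjusted p = 0.0205). These means cover genes that disagree. In vehicle livers Cpa1 was lower in males (-6.53, -7.39 and -6.17) than in females (-0.44, 0.29 and -0.67). Cela1 was higher in males (2.94, 3.49 and 3.77) than in females (1.6, 1.67 and 0.89). The part of the pancreas genes in the result was not tested. Bcat2, the nearest tested protein-coding gene to Fgf21 in the annotation, gave 0.33 ± 0.21 and 0.15 ± 0.21, neither called.

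Among 4 tested receptor genes of the Fgf21 pathway, 2 fell and 0 rose in each sex, where 12.6% of all genes fell in females and 10.8% in males: Fgfr2 by 1.50 ± 0.23 in females and 0.98 ± 0.23 in males, and Fgfr4, the main liver form, by 0.70 ± 0.21 and 0.85 ± 0.21. Fgfr2 was higher in females than in males after vehicle (1.10 ± 0.23, adjusted p = 0.0410). No probe matched Klb, the co-receptor that Fgf21 needs, so it was not analysed here.

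Angptl4 encodes a secreted inhibitor of lipoprotein lipase, which keeps circulating fat from being taken up. It stood at 2.29, 2.45 and 3.12 in female livers given dexamethasone, against 4.44, 3.86 and 3.23 in those given vehicle. In male livers it stood at 2.06, 2.38 and 2.56 after dexamethasone, against 4.05, 4.10 and 3.01 after vehicle. The groups did not overlap in either sex, but on slide 5 the treatments lay closest. The fall was 2.32-fold in females (-1.22 ± 0.38, adjusted p = 0.0397) and 2.61-fold in males (-1.38 ± 0.38, adjusted p = 0.0257).

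The fall of Angptl4 was the least stable of the 5 calls. Within slide 5 it was -0.10 in females and -0.45 in males, within slide 1 it was -2.03 in males, and without slide 5 it was -1.77 and -1.85 (adjusted p = 0.00469 and 0.00560). With slide as a fixed block it was -0.32 in females (adjusted p = 0.738) and -1.35 in males (adjusted p = 0.0508), and with slide as a random block -0.81 (adjusted p = 0.191) and -1.40 (adjusted p = 0.0114). In females, slides 1 to 4 hold dexamethasone and vehicle arrays on different slides, so there slide and treatment cannot be told apart. The call in females was also lost without female dexamethasone 1 or 2, female vehicle 1 or 2, or male dexamethasone 2 (adjusted p = 0.0541 to 0.134). In males it was also lost without male dexamethasone 1 or 2 or male vehicle 1 or 2 (adjusted p = 0.0614 to 0.0888). Kank3, beside Angptl4 in the annotation, rose in females (0.66 ± 0.19, adjusted p = 0.0271) and in males (0.94 ± 0.19, adjusted p = 0.00513).

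Lipoprotein lipase and its other controllers were not called: 0 of 9 passed in either sex by limma (1 and 2 at an unadjusted p under 0.05), with medians of 0.23 and -0.04. Over all genes, 24.4% were called in females and 20.1% in males. Lpl itself gave 0.65 ± 0.45 in females (adjusted p = 0.322) and 1.18 ± 0.45 in males (adjusted p = 0.0947). Of 8 adipocyte markers, Adipoq and Lep were not well above background on any array, and Plin1 on 1. The other 5 were tested: Retn was higher after dexamethasone in females (2.49, adjusted p = 0.0305), with 3 of 12 arrays well above background, and Pparg fell in males (-1.17, adjusted p = 0.0390). Their mean level per array was -2.16 to -1.44 and -2.41 to -2.26 in female livers given dexamethasone and vehicle, and -2.37 to -2.04 and -2.57 to -1.80 in male ones, and their part in the results was not tested.

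**Figure D3:**
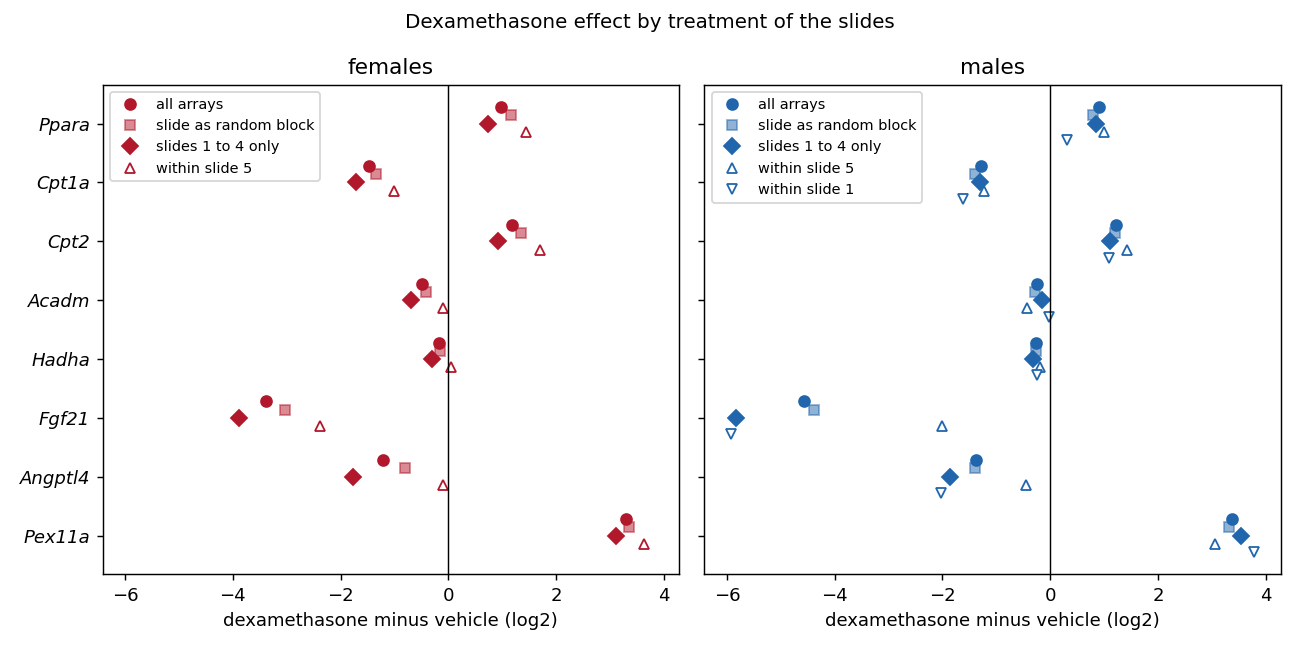
Dexamethasone minus vehicle on the log2 scale for each gene in females and males, from all arrays, with slide as a random block, from slides 1 to 4 alone, and within slide 5 (both sexes) and slide 1 (males), where 1 array stands against 1. Pex11a and Cpt2 lie above 0 and Cpt1a below it in each of these, while Fgf21, Angptl4 and Cpt1a lie nearer to 0 within slide 5 than over slides 1 to 4 in both sexes.

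Pex11a encodes a membrane protein of peroxisomes that is a classic PPARalpha target in rodents, and it rose the most. Its brighter probe read 3.53, 2.92 and 2.73 in female livers given dexamethasone, against 0.08, 0.15 and -0.91 in those given vehicle. Its male readings were 4.04, 3.86 and 3.52 after dexamethasone, against 0.57, 0.26 and 0.46 after vehicle. The treatments lay more than 2 log2 units apart on every pair of arrays. The rise was 9.75-fold in females (3.29 ± 0.30, adjusted p = 6.61e-05) and 10.4-fold in males (3.38 ± 0.30, adjusted p = 5.27e-05).

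The dimmer Pex11a probe, whose sequence is printed above, gave the same picture. It read 1.57, 1.35 and 0.59 in female livers given dexamethasone, against -1.68, -1.89 and -3.38 after vehicle, the last of these not well above background. In male livers it read 2.08, 1.46 and 1.04 after dexamethasone, against -1.64, -1.57 and -1.42 after vehicle. Its rise was 11.2-fold in females (3.49 ± 0.44) and 8.42-fold in males (3.07 ± 0.44). For the brighter probe the rise was 3.63 in females and 3.06 in males within slide 5 and 3.79 in males within slide 1, and it was called in every alternative with a test. The neighbouring genes Plin1 and Wdr93 were dim, well above background on 1 and 2 arrays.

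Other peroxisomal genes went both ways. Of 21 other peroxisomal genes tested, 2 rose and 2 fell in females, and 3 rose and 1 fell in males, with medians of 0.04 and -0.21, and the share called was 19.0% in each sex, near that of all genes. Phyh, the phytanoyl-CoA hydroxylase that starts alpha-oxidation, rose in females (1.54 ± 0.17, adjusted p = 0.000201) and was -0.05 ± 0.17 in males, and was lower in females than in males after vehicle (-1.74 ± 0.17, adjusted p = 0.000424). Hacl1, the next lyase of that route, rose in females (1.11 ± 0.28) and was 0.76 ± 0.28 in males (adjusted p = 0.0876). In males Acox2, the oxidase for branched chains and bile acid precursors, rose (1.52 ± 0.40), as did the membrane assembly factor Pex16 (0.66 ± 0.16), and the oxidase Acox3 fell (-0.82 ± 0.16). The thiolase gene Acaa1a fell in females (-0.88 ± 0.23) and was -0.55 ± 0.23 in males, not called. Ehhadh, the bifunctional enzyme, gave -0.65 ± 0.42 and -0.82 ± 0.42, not called.

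Other targets of PPARalpha also moved in both directions. Of 18 tested, 2 rose and 2 fell in females, and 2 rose and 4 fell in males. That is 22.2% and 33.3% called, beside 24.4% and 20.1% of all genes, with medians of -0.32 and -0.31 beside -0.08 and 0.01 over all genes. Plin5, a lipid droplet protein that ties droplets to mitochondria, rose by 2.89 ± 0.30 in females and 3.57 ± 0.30 in males, and its arrays lay between 0.60 and 0.84 after dexamethasone against -2.90 to -1.71 after vehicle in females, and between 0.79 and 0.97 against -2.92 to -2.26 in males. Cidec, which enlarges droplets, rose by 1.66 ± 0.20 and 1.31 ± 0.20. Pdk4, the kinase that spares glucose while fat is burned, was not well above background after dexamethasone on any female array. There it was at least 9.14-fold lower than after vehicle, and it fell by 3.48 ± 0.42 in males. Aqp9, the glycerol channel of hepatocytes, fell (-0.82 ± 0.25 and -1.18 ± 0.25), and the malic enzyme gene Me1 and the pantetheinase gene Vnn1 fell in males (-1.38 ± 0.36 and -1.28 ± 0.38).

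Microsomal omega-oxidation had 2 of 5 lower in females and 0 of 5 called in males by limma (1 at an unadjusted p under 0.05). Of all genes, 12.6% were lower in females and 20.1% were called in males. In females Cyp4a3 (-1.05 ± 0.25) and Cyp4a8 (-0.92 ± 0.26, with overlapping arrays) fell. Cyp4a1, the form most tied to PPARalpha, gave -0.67 ± 0.33 in females and -0.40 ± 0.33 in males, not called. The CYP4A genes are close relatives, so their probes may share signal.

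**Figure D4:**
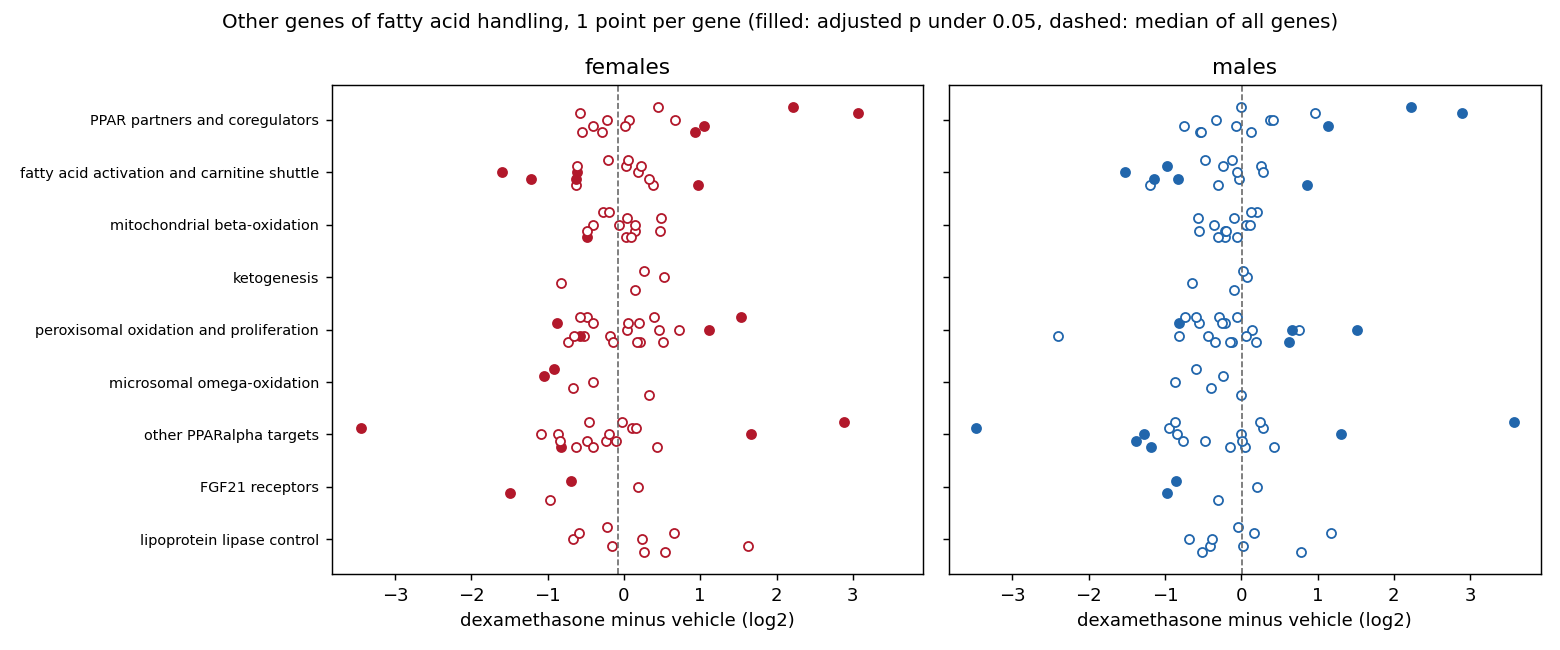
Dexamethasone minus vehicle on the log2 scale for each tested gene of the 9 other lists, females left and males right, filled where called, with the median of all genes dashed. Ketogenesis and lipase control have no filled point in either sex, and Lpin1, Plin5 and Pdk4 lie farthest out among the filled ones.

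Over the 9 lists together, 101 of 109 genes were tested. In females 9 rose and 13 fell, 21.8% called beside 24.4% of all genes, and in males 9 rose and 11 fell, 19.8% beside 20.1%. Without a block, the share called was thus near that of all genes in both sexes. In males it depended on the block. With slide as a fixed block, 38 of the 101 were called in males, beside 6234 of all 24298 genes. With replicate number as a block, the male counts were 34 and 6335.

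None of the 8 members was called for a difference between the sexes. In the difference of the dexamethasone effect, females minus males, 0 of 8 were called, where 0.0288% of all genes were, and 0 of 8 had an unadjusted p under 0.05. Estimates were smaller than their errors or about as large, from -0.25 ± 0.25 for Acadm to 0.17 ± 0.53 for Angptl4, with 1.17 ± 1.29 for Fgf21. The intervals for Cpt1a (-0.89 to 0.49), Cpt2 (-0.72 to 0.64) and Pex11a (-1.05 to 0.86) bound that difference to about 1 log2 unit. Between females and males, 0 of 8 were called after dexamethasone and 0 of 8 after vehicle, where 2.31% and 1.71% of all genes were, and 3 and 1 had an unadjusted p under 0.05. Pex11a was lower in females by 0.75 after dexamethasone (-0.75 ± 0.30, adjusted p = 0.266) and by 0.66 after vehicle (-0.66 ± 0.30, adjusted p = 0.519).

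Sex differences did appear among neighbours in the pathway. Cyp4a2 was lower in females than in males after dexamethasone (-3.25 ± 0.41) and after vehicle (-3.71 ± 0.41), as was Cyp4a8 (-2.85 ± 0.26 and -2.52 ± 0.26). The fatty acid transporter gene Cd36 was higher in females (3.41 ± 0.59 and 2.88 ± 0.59), as was Acsl4, a ligase that prefers arachidonic acid (0.93 ± 0.18 and 1.16 ± 0.18). The thioesterase gene Acot5 was higher in females after dexamethasone (1.85 ± 0.30, adjusted p = 0.0107).

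Across the 12 arrays the 8 genes ran in opposed sets, which group means alone can produce, since treatment is shared by all. The closest pair was Fgf21 with Angptl4 (Pearson r = 0.93), then Cpt2 with Pex11a (0.90) and Cpt1a with Acadm (0.88). Ppara tracked Cpt2 (0.81) and ran against Fgf21 (-0.69). Among 12069 named genes with complete values, the most alike in pattern over the 12 arrays were Ankh, Cyria (0.986 each) and Nmd3 (0.984) for Pex11a, and Tmem37 (0.983), Polr2c and Atp6v0e1 (0.976 each) for Cpt2. For Fgf21 they were Cep15 (0.969), Tmem125 (0.953) and Ssx2ip (0.952), and for Angptl4 Tlcd1 (0.945), Plod1 (0.942) and Slc38a3 (0.932). For Cpt1a they were Ilrun (0.967), the stellate cell marker Lrat (0.964) and Tmem176b (0.953). For Ppara the closest was Wdr83os (0.958), for Acadm Slc16a7 (0.955) and for Hadha Sat2 (0.940). These are descriptions over arrays that share their slides and their treatment.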

How the data were processed

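Liver RNA pools of 4 groups were measured on 12 single-colour Agilent rat arrays. The authors deposited scanner files whose processed signals are spot intensities in arbitrary units, background-subtracted by Agilent Feature Extraction, version 9.1 per the submitters' processing notes. The deposited value table holds log10 intensities by the authors, whose scaling is not given in the sources used here, and served as an alternative only. On the log2 scale, each array's processed intensities were reduced by the 75th percentile over its non-control spots. The 211 outlier spots counted as missing, no spot was saturated, and repeated spots gave 1 mean per probe. A probe entered if it stood well above background on 3 or more arrays and each group had 2 or more arrays with a value; a gene was read from its brightest such probe. A gene of the GRCr8 reference table was found for 20255 of the 41012 probes, and the others kept the file's name.

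Each gene was fitted with limma 3.58.1 under R 4.3.3, with 1 mean per group over all 12 arrays, and Benjamini-Hochberg adjustment ran within each of 5 contrasts: dexamethasone in females, in males, their difference, and females minus males after dexamethasone and after vehicle. Differences are given with their SE. The procedure was tested on simulated data with independent noise on each array and changes in the male dexamethasone arrays only. The simulation held no slide effect, so it cannot show how the procedure behaves under one. Where no array of a group was well above background, only the least possible fold is given. It was computed against the lowest signal still well above background on those arrays. Figures were drawn with matplotlib 3.10.9.

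The genes and the lists were chosen with earlier results of these data known. Named were the 8 genes, 9 further genes always, up to 4 called genes per list and contrast with the largest differences and no overlap, list genes called between the sexes, 3 most alike genes per member, and 4 label checks; 3 of the genes this rule names are not reported here. The alternatives changed background correction, scaling, filter, probe choice, blocks, arrays fitted and single arrays. Leaving out slide 5 was chosen after seeing the data.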

Additional observations from a re-analysis of the deposited data

How the results depend on the processing

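Under the 24 alternatives run for each dexamethasone effect, Cpt2 and Pex11a kept their direction and, where a test was run, their call in both sexes, and Cpt1a lost its call only in females with slide as a fixed block. Fgf21 lost it under 6 in females and none in males, and Angptl4 under 10 in females and 5 in males; the cause was not tested. Ppara gained a call under 3 alternatives in females and 2 in males, Acadm under 4 in females, and Hadha in males with the deposited value table (-0.45, adjusted p = 0.0384). Replicate numbers were not taken to pair the arrays, and the fit without a block treats the 12 arrays as independent. Deviations from group means correlated between 0 and 0.59 (median 0.185) within a number, against -0.44 to 0.38 (median -0.10) between numbers. Within replicate 3 they were 0.18 to 0.59. Within replicates 1 and 2 they were 0 to 0.36, and between those numbers -0.10 to 0.38. Arrays of replicate 3 were thus more alike, which was not seen for replicates 1 and 2. Of the 12 arrays, 8 were closest to one of their own number. Replicate 3 is also slide 5, so number and slide cannot be told apart there. With slide as a random block, the estimated correlation within a slide was 0.512. With the replicate block, Ppara was called in females (adjusted p = 0.00910) and males (0.0139) and Angptl4 was not in females (0.0504). That block also gave 34 other pathway genes for dexamethasone in males, and 849 genes with 9 of the pathway between the sexes after dexamethasone. 

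Counts that moved by over 1.5 times were as follows. With slide as a fixed block there were 3086 genes for dexamethasone in females, with 3 members, all higher (Ppara gained, and no fall called), 38 other pathway genes in males, and 252 genes between the sexes after vehicle. With slide as a random block there were 7749 genes and 39 other pathway genes in males, and 919 genes (8 of the pathway) and 654 genes between the sexes after dexamethasone and after vehicle. With only the compared arrays fitted, 12 other pathway genes remained in males and 165 genes (3 of the pathway) between the sexes after vehicle. For the difference of the effects, normexp gave 29 genes (1 of the pathway) and no filter 0. Leaving out arrays gave 3744 to 7243 genes, 3 to 6 members and 11 to 32 other pathway genes in females, 0 to 5 genes for the difference, and 296 to 870 and 261 to 403 genes between the sexes after dexamethasone and after vehicle.

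Signs that turned belong to differences that were not called. For females minus males in the dexamethasone effect, normexp gave -0.06 for Ppara and 0.01 for Cpt2, and the mean of probes 0.16 for Pex11a. A fixed slide block gave 0.31 for Cpt1a, 0.37 for Cpt2, 0.04 for Acadm and 0.07 for Pex11a, and a random one 0.05, 0.14 and 0.03 for Cpt1a, Cpt2 and Pex11a. Leaving out arrays ranged from -0.29 to 0.40 for Ppara, -0.25 to 0.16 for Cpt2, -0.05 to 0.21 for Hadha, -0.14 to 0.52 for Angptl4 and -0.43 to 0.09 for Pex11a. Between the sexes, Cpt2 was 0.16 after dexamethasone with a fixed slide block, and Hadha was -0.09 after vehicle with the mean of probes; leaving out arrays gave -0.39 to 0.03 for Cpt2 after dexamethasone, and -0.24 to 0.05 for Acadm and -0.23 to 0.43 for Angptl4 after vehicle. Within slide 5, where 1 array stands against 1 and there is no test, the difference of the effects also turned, to 0.22 for Cpt1a, 0.28 for Cpt2, 0.34 for Acadm, -0.39 for Fgf21 and 0.57 for Pex11a, as did Hadha for dexamethasone in females (0.05) and Fgf21 between the sexes after vehicle (0.63).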
